A study of Mus musculus with 42 samples.

Results

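The genes described here are 10 members of the Notch pathway: the receptors Notch1 and Notch4, the ligands Dll1, Dll4, Jag1 and Jag2, the transcriptional repressors Hey1, Hey2 and Hes1, which are targets of the pathway, and the feedback inhibitor Nrarp. They were taken by name from the 21674 genes of the deposited expression table and followed through 42 RNA sequencing libraries in 23 groups of mouse material. Most libraries are flushes of the carotid intima, the innermost layer of the artery, which holds the endothelium and any cells attached to it, in pools of 3 to 5 arteries. In partial ligation, branches of the left carotid were tied to give low flow, and the contralateral artery of the same animals was the high-flow side; sham-operated arteries were a further control. Untreated arteries of young male C57BL/6J mice were taken 48 hr after surgery (3 pools each of low flow, high flow and sham). Treated arteries, also at 48 hr, came from animals given an IgG control antibody (2 low-flow and 2 high-flow pools), the platelet-depleting antibody anti-GPIba (2 low-flow pools), the granulocyte antibody anti-Gr1 (2 low-flow pools), PBS liposomes (2 low-flow and 2 high-flow pools) or clodronate liposomes, which deplete macrophages (2 low-flow pools). 1 further low-flow pool of each liposome treatment was read at 100 bp. The 7 d arteries were from animals of both sexes with floxed Rbfox2 and the Rosa26-mTmG reporter, either with the Cdh5(PAC)-CreERT2 transgene, which drives recombination in endothelial cells (Rbfox2 EC-KO), or without it (Rbfox2 control), with 3 low-flow and 2 high-flow libraries per genotype. All 7 d groups therefore carried the floxed allele. The cell libraries, 1 per condition, were an immortalised aortic endothelial line grown for 48 hr alone, in 10% plasma, beside platelets and macrophages, or in plasma and beside these cells, and primary aortic endothelial cells (1 library of eGFP-positive cells at 5 days, and 1 library each of Rbfox2 control and Rbfox2 EC-KO cells at 7 days).

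Notch signalling runs between touching cells. A ligand on one cell (Dll1, Dll4, Jag1, Jag2) binds a receptor on the next, the receptor is cut by ADAM proteases and gamma-secretase, and the freed intracellular domain joins the DNA-binding protein RBPJ and its Mastermind co-activators to switch on targets such as the Hey and Hes repressors and Nrarp, which in turn lowers the activity of the intracellular domain. In blood vessels the pathway is known for setting arterial identity, in which Dll4, Notch1, Notch4, Hey1 and Hey2 take part, for the choice between tip and stalk cells in sprouting, in which Dll4 and Jag1 have opposite roles, and for the response of artery endothelium to flow.

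The members lie on 6 chromosomes of the build used for the table (mm9). Nrarp (chr2:25036278-25038850, plus strand), Notch1 (chr2:26313423-26372183, minus), Dll4 (chr2:119151520-119161698, plus) and Jag1 (chr2:136907192-136942380, minus) are on chromosome 2. Hey1 is at chr3:8663362-8667039 (minus), Hey2 at chr10:30552165-30562607 (minus), Jag2 at chr12:114146801-114167706 (minus) and Hes1 at chr16:30064470-30067882 (plus). Dll1 (chr17:15504318-15513836, minus) and Notch4 (chr17:34701213-34725448, plus) share chromosome 17. These are whole-gene spans, exons and introns included, and the measurement is the RNA of all exons of each gene.

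Promoter windows of 250 bases before to 50 bases after the annotated start were found for 8 of the 10 members in RefSeq (build GRCm38.p6), with 9 windows since Dll1 has 2; Hes1 and Hey1 were not among them. The windows of the ligands with opposite changes under low flow, Dll4 and Dll1, and of the target Hey2 are shown because the results turn on these genes and because Hey2 holds the letters bound by RBPJ. The motif searched on both strands was CGTGGGAA, and its matches are in capitals. The Hey2 window holds 2 matches, one from position -207 to -200 on the reverse strand and one from -5 to 2 on the forward strand, counted from 0 at the start; among all 32851 windows of this length 0.734% hold at least 1 match and 0.0122% hold 2 or more. No other matched member held one, which says only that these letters are not in its window. A shorter core, GTGGGAA, lies inside both Hey2 matches and is found in 6.38% of windows, and CACGTG, the letters read by Hey and Hes repressors, is in the Nrarp window alone among the members and in 7.15% of all windows. CCACCC, the letters bound by Klf factors, is in 31.5% of all windows and in those of Nrarp, Jag2, Notch4 and Dll1 (the window shown). The windows shown are Hey2 at chr10:30842734-30843033 on the minus strand, Dll1 at chr17:15375774-15376073 on the minus strand and Dll4 at chr2:119325534-119325833 on the plus strand, each written 5′ to 3′ along its gene.
Hey2: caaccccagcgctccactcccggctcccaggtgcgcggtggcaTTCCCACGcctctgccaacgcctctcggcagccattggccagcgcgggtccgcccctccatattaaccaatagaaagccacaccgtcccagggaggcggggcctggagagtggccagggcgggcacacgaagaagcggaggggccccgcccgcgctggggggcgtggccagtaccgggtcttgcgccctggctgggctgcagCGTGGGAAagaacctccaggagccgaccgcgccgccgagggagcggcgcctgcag
Dll1: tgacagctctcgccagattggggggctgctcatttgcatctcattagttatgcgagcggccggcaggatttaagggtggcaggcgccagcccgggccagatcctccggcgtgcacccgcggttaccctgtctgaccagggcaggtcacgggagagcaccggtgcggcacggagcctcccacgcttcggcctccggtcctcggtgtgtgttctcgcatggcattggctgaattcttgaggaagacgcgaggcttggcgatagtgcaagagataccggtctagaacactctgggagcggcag
Dll4: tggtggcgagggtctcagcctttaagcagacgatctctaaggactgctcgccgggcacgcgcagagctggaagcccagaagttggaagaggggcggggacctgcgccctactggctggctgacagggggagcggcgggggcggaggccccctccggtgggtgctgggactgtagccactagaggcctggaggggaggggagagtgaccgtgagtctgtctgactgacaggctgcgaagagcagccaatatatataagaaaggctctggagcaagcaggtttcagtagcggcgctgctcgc

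Libraries held 4064477 to 6794904 counts in the untreated set, 12286104 to 19035957 in the treated 48 hr set, 10318685 to 18633538 at 7 d, 13975153 to 16394043 in the cell line and 4989843 to 14556377 in primary cells. Levels are given as FPKM, the count scaled to the effective length of the transcript and to the total count of the library. They serve to compare genes within a set. The same effective length per gene was used at both read lengths, and levels of some members differed between sets, so orders and ratios of genes across sets carry that difference. All 13 endothelial markers, such as Cdh5 and Pecam1, were detected in every library. Fold changes come from edgeR's quasi-likelihood test on counts with Benjamini-Hochberg adjustment over all genes tested, and a gene is called at an adjusted p under 0.05. In untreated low-flow pools a, b and c the 10 most abundant genes took 22.8%, 23.5% and 10.4% of counts. The high-flow and sham pools had 9.27% to 10.6%, so low-flow pool c lay with them and pools a and b apart. The median gene's FPKM in the low-flow pools was lower by 0.69 (log2) than in high flow. edgeR's TMM scaling takes out that shift (median -0.07), so its folds differ from ratios of FPKM. The untreated libraries were read at 100 bp and the treated and 7 d libraries at 150 bp, and differences between groups are tested only within a set. Nothing in the labels says that pools of a group came from separate batches of animals, so p-values measure the spread between these pools.

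Under low flow at 48 hr the Notch ligands moved in opposite directions in untreated arteries: Dll1 fell 7.81-fold and Dll4 rose 10.2-fold against the high-flow side. The receptor Notch1 and the targets Hey2 and Hes1 fell by 1.85-, 2.39- and 3.79-fold. Of the 10 members, 9 passed the filter on low counts and 5 were called (1 higher, 4 lower), against a background of 46.2% of all genes called in this comparison (23.6% higher, 22.6% lower). The remaining member, Jag2, stayed at or under 0.169 FPKM in all 9 untreated pools and was not tested.

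**Figure D1:**
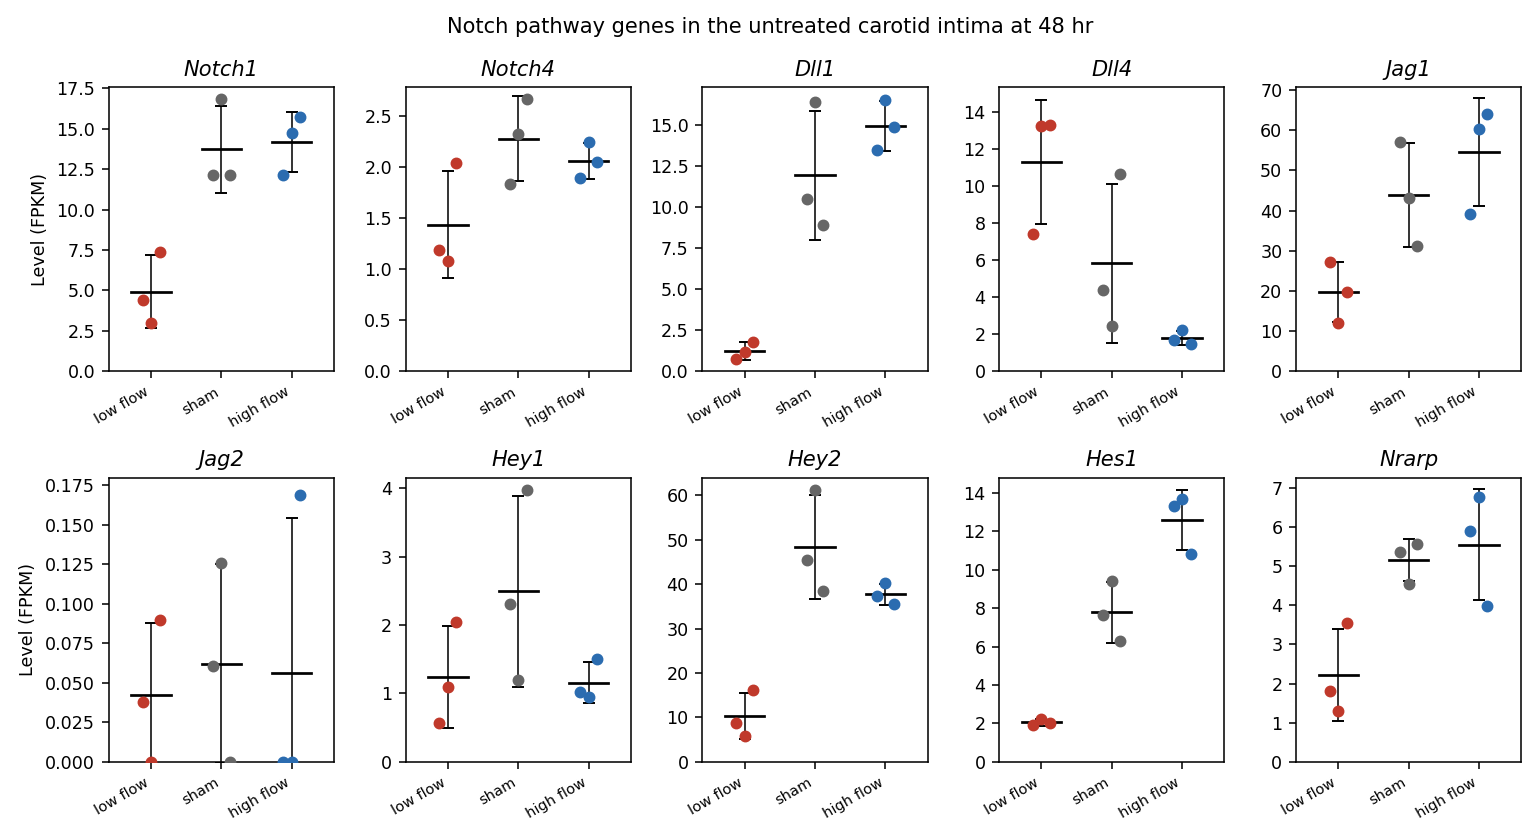
FPKM of each member (1 panel each, own linear axis from 0) in the untreated 48 hr low-flow (red), sham (grey) and high-flow (blue) pools (n = 3 each), 1 point per pool, with the mean as a bar and the SD as whiskers. Dll1, Hes1, Hey2, Notch1, Jag1 and Nrarp show low-flow points under all points of both other groups, and Dll4 shows low-flow points over all high-flow points.

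Among the ligands, Dll1 stood at 0.762, 1.17 and 1.82 FPKM in low-flow pools a, b and c and at 13.5, 16.5 and 14.9 FPKM in the high-flow pools. The groups were far apart and the sham pools (10.5, 16.4 and 8.92 FPKM) lay with high flow. The log2 fold change of low against high flow was -2.97 ± 0.22 (SE; edgeR adjusted p = 4.16e-06). Dll4, the ligand known for arterial and tip cells, stood at 7.43, 13.2 and 13.3 FPKM under low flow and at 1.70, 2.23 and 1.47 FPKM under high flow. Its sham pools spread widely, at 4.37, 2.45 and 10.7 FPKM, and sham pool c lay inside the low-flow range. The Dll4 log2 fold change against high flow was 3.35 ± 0.32 (SE; edgeR adjusted p = 1.54e-05). Jag1 was at 27.1, 12.1 and 19.9 FPKM under low flow, at 39.3, 60.3 and 64.0 FPKM under high flow and at 57.1, 43.2 and 31.3 FPKM in sham. No low-flow pool reached the lowest pool of either other group, as ranges that do not overlap were found in 51.6% of all genes against high flow and 48.6% against sham, but after scaling Jag1 was not called.

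The receptors differed from each other. Notch1 was at 4.39, 3.01 and 7.40 FPKM under low flow and 12.1, 14.7 and 15.7 FPKM under high flow, with sham at 12.2, 16.8 and 12.1 FPKM; the low-flow pools lay under all others. Its log2 fold change against high flow was -0.89 ± 0.19 (SE; edgeR adjusted p = 0.00346). Notch4, a receptor largely restricted to endothelium, was at 1.18, 1.08 and 2.04 FPKM under low flow and 1.89, 2.24 and 2.05 FPKM under high flow and was not called.

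Of the targets, Hey2 was at 8.86, 5.94 and 16.1 FPKM under low flow, at 37.4, 40.3 and 35.5 FPKM under high flow and at 45.5, 61.1 and 38.4 FPKM in sham. Low flow lay under both controls without overlap, with a log2 fold change against high flow of -1.25 ± 0.18 (SE; edgeR adjusted p = 0.000298). Hes1 was at 1.91, 2.24 and 2.01 FPKM under low flow and 13.3, 13.7 and 10.8 FPKM under high flow, and at 7.65, 9.41 and 6.27 FPKM in sham. Its log2 fold change against high flow was -1.92 ± 0.32 (SE; edgeR adjusted p = 0.00075). The feedback inhibitor Nrarp was at 1.82, 1.30 and 3.54 FPKM under low flow and 5.89, 6.75 and 3.99 FPKM under high flow (log2 fold change -0.70 ± 0.28, SE; edgeR adjusted p = 0.0611), so it missed the threshold, although without high-flow pool c its adjusted p was 0.0267. The edgeR adjusted p was 0.0495 with upper quartile scaling, 0.0434 with all groups in 1 fit and 0.193 with scaling to the endothelial markers. Its sham pools, at 5.36, 4.55 and 5.56 FPKM, also lay above all low-flow pools. Hey1 was low throughout, at 0.571 to 2.04 FPKM under low flow, 0.956 to 1.5 FPKM under high flow and 1.19 to 3.98 FPKM in sham, and was not called.

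The order of levels within a group changed with flow. In high-flow pools Jag1 and Hey2 were the highest members and their ranges overlapped, then came Dll1, Notch1 and Hes1, whose ranges overlapped in turn, then Nrarp, and Dll4 (1.47 to 2.23 FPKM) lay with Notch4 and Hey1 near the bottom. In low-flow pools Jag1, Dll4 and Hey2 were the highest, with overlapping ranges, and Dll1 (0.762 to 1.82 FPKM) lay with Hey1, Notch4, Hes1 and Nrarp. The ratio of Dll4 to Dll1 FPKM, a quantity chosen after the values were seen, was therefore followed over all carotid libraries. Over the 21 low-flow libraries of all sets and treatments it ran from 0.950 to 12.9 with a median of 3.32, and over the 11 high-flow libraries from 0.0654 to 0.321 with a median of 0.135. The 3 sham pools had 0.150, 0.415 and 1.19, so 1 sham pool entered the low-flow range and no high-flow library did.

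**Figure D2:**
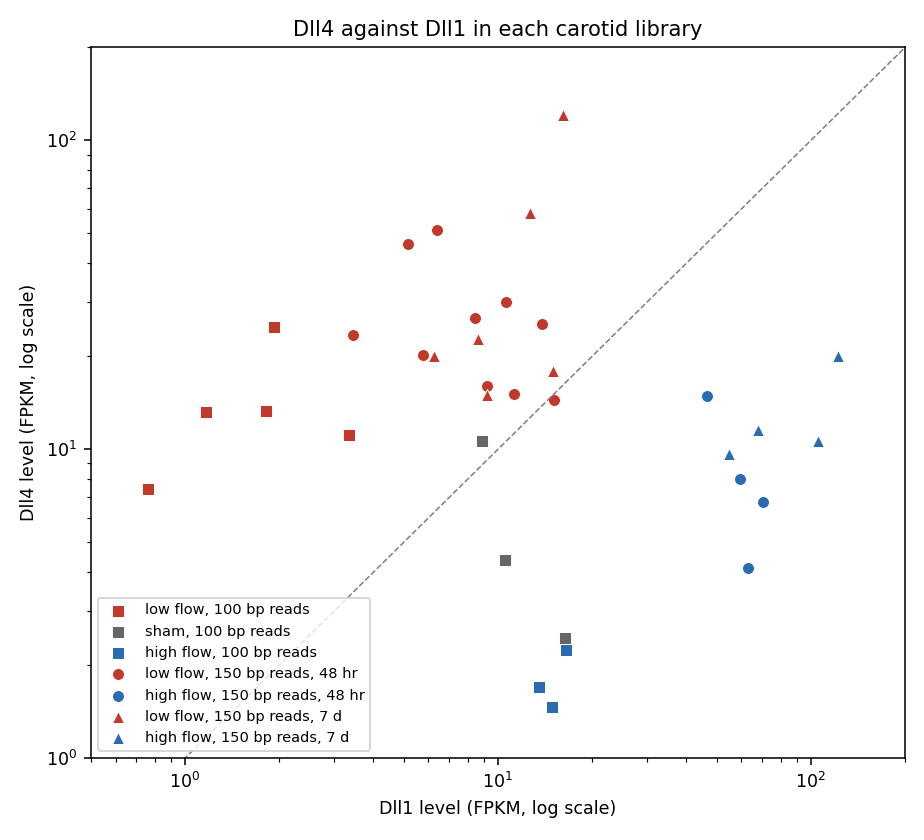
Dll4 FPKM against Dll1 FPKM (both axes log) in each carotid library, 1 point per library, coloured by flow (red low, grey sham, blue high) with a symbol per set, and the line where both are equal. The ratio of the 21 low-flow libraries is 0.950 or above and that of the 11 high-flow libraries 0.321 or below.

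Other cells moved with flow. The 13 endothelial markers summed to 0.435% to 0.595% of counts in the untreated low-flow pools and 1.06% to 1.22% in the high-flow pools (2 rose and 4 fell of 13 tested). These are shares of raw totals, and after TMM scaling the list median was 0.12 (log2), beside -0.07 for all genes. The 12 macrophage markers, all detected in every low-flow pool, summed to 0.215% to 0.332% under low flow and 0.0069% to 0.0166% under high flow (10 of 11 tested rose). The 8 smooth muscle markers summed to 0.233% to 0.432% and 0.0557% to 0.0654%, though 3 of the 7 tested rose, 1 fell and the list median was -0.13 (log2). Neutrophil markers summed to 0.0222% to 0.0460% under low flow and 0.000639% to 0.00113% under high flow (5 of 5 tested rose). Fat cell markers went the other way, at 0.000162% to 0.00018% and 0.00883% to 0.137% (4 of 4 tested fell), as did fibroblast markers, at 0.00646% to 0.0412% and 0.0465% to 0.0905% (3 of 7 fell). The part of these cells in the members' values was not tested, and in such bulk flushes fewer cells of a type and less RNA per cell cannot be told apart. Scaled to the endothelial markers in place of all genes, 5 members were again called. The share of all genes called under this scaling is not reported here, so that count has no background.

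The comparison with sham asks whether the low-flow side or the high-flow side departs from an artery that was not tied. Against sham, low flow again had 5 members called (Dll4 higher, Notch1, Dll1, Hey2 and Hes1 lower; 40.3% of all genes called, 20.6% higher and 19.7% lower); this comparison shares its low-flow pools with the one above. Dll1 had a log2 fold change of -2.59 ± 0.29 (SE; edgeR adjusted p = 0.00123), a 6.02-fold lower level, and Hey2 one of -1.57 ± 0.22 (SE; edgeR adjusted p = 0.00186), 2.96-fold lower. Dll4 was 3.22-fold higher than sham (log2 1.69 ± 0.50, SE; edgeR adjusted p = 0.0271) with overlapping FPKM ranges. Notch1 (log2 -0.80 ± 0.20, SE; edgeR adjusted p = 0.0153) and Hes1 (log2 -1.17 ± 0.35, SE; edgeR adjusted p = 0.0268) also fell. Leaving out a single pool ended some of these calls: Dll4 missed the threshold without low-flow pool a, low-flow pool b or sham pool a (edgeR adjusted p 0.0583, 0.1004 and 0.0912), Notch1 without low-flow pool b or sham pool b (0.0645 and 0.0542), and Hes1 without low-flow pool a or c or sham pool a or b (edgeR adjusted p 0.0645 to 0.0842). The calls of Dll1 and Hey2 were kept without any 1 pool. Endothelial markers summed to 0.939% to 1.26% of counts in sham against the 0.435% to 0.595% of low flow. After TMM scaling their list median was -0.10 (log2). Macrophage (9 of 12) and neutrophil markers (5 of 5 tested) rose and fibroblast markers (3 of 6 tested) fell against sham. Smooth muscle markers summed to 0.233% to 0.432% under low flow and 0.0492% to 0.166% in sham (2 of 7 tested rose and 1 fell). The part of all these cells was not tested.

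Between high flow and sham edgeR called 0 of 11030 genes (0%), with 868 genes (7.87%) at an unadjusted p under 0.05 and 91 genes (0.825%) called by DESeq2. No member was called by either tool. By edgeR 3 members had an unadjusted p under 0.05: Dll4 was lower in high flow (log2 -1.66 ± 0.50, SE; edgeR adjusted p = 0.363), Hey1 was lower and Hes1 was higher (log2 0.76 ± 0.22, SE; edgeR adjusted p = 0.362). Without sham pool b, whose Dll4 was the lowest of the sham pools at 2.45 FPKM, Dll4 was called (log2 -2.04, edgeR adjusted p = 0.0442). Fat cell markers summed to 0.00883% to 0.137% of counts in high flow and 0.000566% to 0.00516% in sham (4 of 4 tested at an unadjusted p under 0.05), and macrophage markers to 0.0069% to 0.0166% and 0.0212% to 0.0646% (7 of 10); their part in these values was not tested.

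The other parts of the pathway were read from a list of 42 further Notch genes. In untreated low against high flow 30 could be tested, of which 1 rose and 7 fell, beside 46.2% of all genes called (23.6% higher and 22.6% lower), with a list median of -0.46 (log2) beside -0.07 for all genes. The one that rose was Mfng (log2 0.96), a Fringe glycosyltransferase that modifies the receptors. Those named by the smallest p among the 7 that fell were Aph1b (log2 -1.93; mean 11.2 FPKM under low flow and 65.5 under high flow) and Aph1c (log2 -0.93), alternative subunits of gamma-secretase, Dtx3 (log2 -1.01), of the Deltex family, and Fbxw7 (log2 -0.82), which marks the receptor's intracellular domain for degradation. Aph1b and Aph1c are close paralogs whose shared reads were divided by estimation, so their split is uncertain. Against sham 4 of 31 fell (Aph1b, Dtx3, Aph1c and Dtx3l) and 0 rose, beside 40.3% of all genes called (19.7% lower).

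Of 16 genes of arterial identity 15 were tested, and 1 rose and 6 fell against high flow (46.2% of all genes called, 22.6% lower), with a list median of -0.68. Gja4, a connexin of arterial endothelium, rose from a mean of 340.0 to 1613 FPKM (log2 3.12). Epas1 (log2 -2.29), a hypoxia-inducible transcription factor, Bmx (log2 -1.99), a kinase of arterial endothelium, and the forkhead factors Foxc1 (log2 -1.96) and Foxc2 (log2 -1.80) fell. Against sham Gja4 rose (log2 2.26) and 6 of 15 arterial genes fell (40.3% of all genes called, 19.7% lower). Of 5 venous genes 3 were tested and Ephb4, the venous Eph receptor, fell (log2 -0.80). The flow-responsive factors Klf2 and Klf4 were at 0.539 to 4.09 and 0.777 to 4.72 FPKM in the low-flow pools against 43.7 to 61.8 and 55.1 to 66.2 FPKM under high flow.

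The treated 48 hr set gives the same contrast in animals given control antibody or control liposomes. In IgG-treated arteries 6 members were called (1 higher and 5 lower; 40.5% of all genes called, 22.8% higher and 17.7% lower) and in PBS liposome-treated arteries 6 (1 higher and 5 lower; 35% of all genes, 19.6% higher and 15.5% lower). Both sets of calls held Dll1, Dll4, Jag1, Jag2 and Hes1; by edgeR Notch1 was also called with IgG and Hey2 with PBS liposomes, and the difference between these 2 comparisons was not tested. In each comparison the low-flow and high-flow libraries were sequenced in different runs, so run and flow cannot be told apart there; the untreated pools shared 1 run.

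Dll1 was at 10.6 and 5.15 FPKM under low flow with IgG and at 59.4 and 63.1 FPKM under high flow. The groups did not overlap, as in 74.1% of all genes here, and low flow was 8.27-fold lower (log2 -3.05 ± 0.43, SE; edgeR adjusted p = 0.000976; log2 -2.32 with scaling to the endothelial markers). With PBS liposomes Dll1 was at 3.44 and 6.38 FPKM under low flow and 70.5 and 46.5 FPKM under high flow, again without overlap (as in 75.3% of all genes) and 11.1-fold lower (log2 -3.47 ± 0.44, SE; edgeR adjusted p = 0.000489). Dll4 was at 29.9 and 46.2 FPKM with IgG under low flow and 8.02 and 4.13 FPKM under high flow, 5.97-fold higher (log2 2.58 ± 0.54, SE; edgeR adjusted p = 0.00432). With PBS liposomes the Dll4 levels were 23.5 and 51.4 FPKM against 6.75 and 14.9 FPKM, 3.74-fold higher (log2 1.90 ± 0.52, SE; edgeR adjusted p = 0.0162). Without low-flow PBS library 2 or high-flow PBS library 1 its edgeR adjusted p was 0.150 and 0.142. Here and below, where leaving out a library leaves 1 in its group, the spread is that of the other groups of the fit and the lone library is assumed to vary like them.

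The Jagged ligands fell together. Jag1 was at 9.55 and 9.65 FPKM under low flow and 32.4 and 39.0 FPKM under high flow with IgG (3.95-fold lower; log2 -1.98 ± 0.37, SE; edgeR adjusted p = 0.00264). With PBS liposomes it was at 3.86 and 6.42 FPKM against 26.8 and 16.1 FPKM (3.89-fold lower; log2 -1.96 ± 0.37, SE; edgeR adjusted p = 0.00293). Jag2, hardly seen in the untreated pools, was at 0.404 and 0.390 FPKM against 2.87 and 1.95 FPKM with IgG (6.40-fold lower; log2 -2.68 ± 0.62, SE; edgeR adjusted p = 0.00707). Jag2 was not called without low-flow IgG library 2 (edgeR adjusted p = 0.0641), and its PBS call (log2 -1.76 ± 0.62, SE; edgeR adjusted p = 0.0452) was lost without any 1 of the libraries low-flow 1, low-flow 2 or high-flow 1 (edgeR adjusted p 0.0840 to 0.315).

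The receptor Notch1 was at 12.3 and 6.35 FPKM under low flow with IgG and 37.0 and 36.1 FPKM under high flow (log2 -2.06 ± 0.43, SE; edgeR adjusted p = 0.00447; adjusted p = 0.0521 without low-flow library 2). With PBS liposomes Notch1 was at 8.85 and 7.90 FPKM against 17.8 and 8.87 FPKM and was not called. Notch4 was at 13.9 and 17.1 FPKM under low flow and 34.4 and 28.7 FPKM under high flow with IgG (log2 -1.10 ± 0.41, SE; edgeR adjusted p = 0.0521). It missed the threshold with edgeR's TMM scaling and with scaling to the endothelial markers (adjusted p = 0.5001), and passed it in edgeR with RLE size factors (adjusted p = 0.0436) or upper quartile scaling (0.0344) and by DESeq2 (adjusted p = 0.0187; 45.8% of all genes called).

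Among targets, Hes1 was at 17.0 and 28.9 FPKM against 49.3 and 63.0 FPKM with IgG (2.59-fold lower; log2 -1.37 ± 0.36, SE; edgeR adjusted p = 0.0121) and at 15.3 and 27.7 FPKM against 51.0 and 56.4 FPKM with PBS liposomes (log2 -1.22 ± 0.36, SE; edgeR adjusted p = 0.0229). Both Hes1 calls were lost with scaling to the endothelial markers (edgeR adjusted p = 0.229 and 0.166). They were also lost without low-flow IgG library 1 (edgeR adjusted p = 0.0923) or high-flow IgG library 2 (0.0687), and without low-flow PBS library 1 or either high-flow PBS library (edgeR adjusted p 0.0758 to 0.165). Hey2 was at 47.5 and 25.8 FPKM against 69.6 and 65.8 FPKM with IgG (log2 -0.97 ± 0.39, SE; edgeR adjusted p = 0.0657; DESeq2 adjusted p = 0.0382). With PBS liposomes Hey2 was at 34.7 and 33.4 FPKM against 87.8 and 68.2 FPKM (log2 -1.09 ± 0.39, SE; edgeR adjusted p = 0.0499), and leaving out any 1 of the 4 libraries ended that call (edgeR adjusted p 0.0661 to 0.241), as did RLE size factors (0.0519), upper quartile scaling (0.0501) and scaling to the endothelial markers (0.277). Nrarp (32.7 and 54.9 FPKM against 46.2 and 76.8 with IgG) and Hey1 (4.71 and 9.35 against 4.38 and 2.07 FPKM) were not called.

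Endothelial markers summed to 0.533% to 0.680% of counts under low flow with IgG and 1.91% to 1.93% under high flow, and macrophage markers to 0.222% to 0.242% and 0.0075% to 0.0276%. With PBS liposomes endothelial markers summed to 0.497% to 0.502% and 1.14% to 1.47%, and macrophage markers to 0.133% to 0.221% and 0.0112% to 0.0211%. After TMM scaling the endothelial list median was -1.10 (log2) with IgG and -0.10 with PBS liposomes. Smooth muscle markers were at 0.439% to 0.475% against 0.0553% to 0.0806% with IgG and at 0.304% to 0.590% against 0.0516% to 0.0942% with PBS liposomes (2 of 8 rose in each). Neutrophil markers were at 0.00886% to 0.0295% against 0.000407% to 0.00097% and at 0.00878% to 0.0270% against 0.000404% to 0.000476% (5 of 6 tested rose in each). Fibroblast markers were at 0.0276% to 0.0367% against 0.106% to 0.111% (3 of 7 fell) and at 0.0153% to 0.0221% against 0.0533% to 0.0663% (2 of 7 fell). The part of these cells in the members' differences was not tested. Scaling to the endothelial markers moved the median gene to 0.83 (log2) in the IgG comparison and 0.59 in the PBS comparison. The direction of Dll1, Dll4, Jag1 and Hes1 held under every scaling run in all 5 flow comparisons, 7 d included. Of the 34 further Notch genes tested, 2 rose and 16 fell with IgG (40.5% of all genes called, 17.7% lower) and 2 rose and 11 fell with PBS liposomes (35% called, 15.5% lower). Psenen, a gamma-secretase subunit, and Mfng were those that rose in both (log2 1.01 and 0.79 with IgG). Aph1b (log2 -2.17), the receptor-cleaving proteases Adam10 (log2 -1.18) and Adam17 (log2 -0.95), and Dtx3 (log2 -1.64) fell with IgG, and Aph1b, Adam10, Adam17 and Numb, which restrains Notch, fell with PBS liposomes (log2 -2.35, -1.80, -0.98 and -1.38). Of the 16 arterial genes 2 rose and 8 fell with IgG and 2 rose and 6 fell with PBS liposomes, beside the same 40.5% and 35% of all genes: Gja4 rose in both (log2 1.49 and 1.53), and Efnb2, the arterial ephrin and a Notch target, fell in both (log2 -2.22 and -1.51). Of the 5 venous genes Ephb4 fell in both (log2 -1.66 and -1.76). Nrp2, a co-receptor of VEGF-C, rose in both (edgeR adjusted p = 0.00799 and 0.0231) from very low levels, with means of 0.480 FPKM against 0 with IgG and 0.493 against 0.0235 FPKM with PBS liposomes. Nr2f2, a transcription factor of venous identity, rose with IgG (edgeR adjusted p = 0.0110; means of 0.141 and 0 FPKM).

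**Figure D3:**
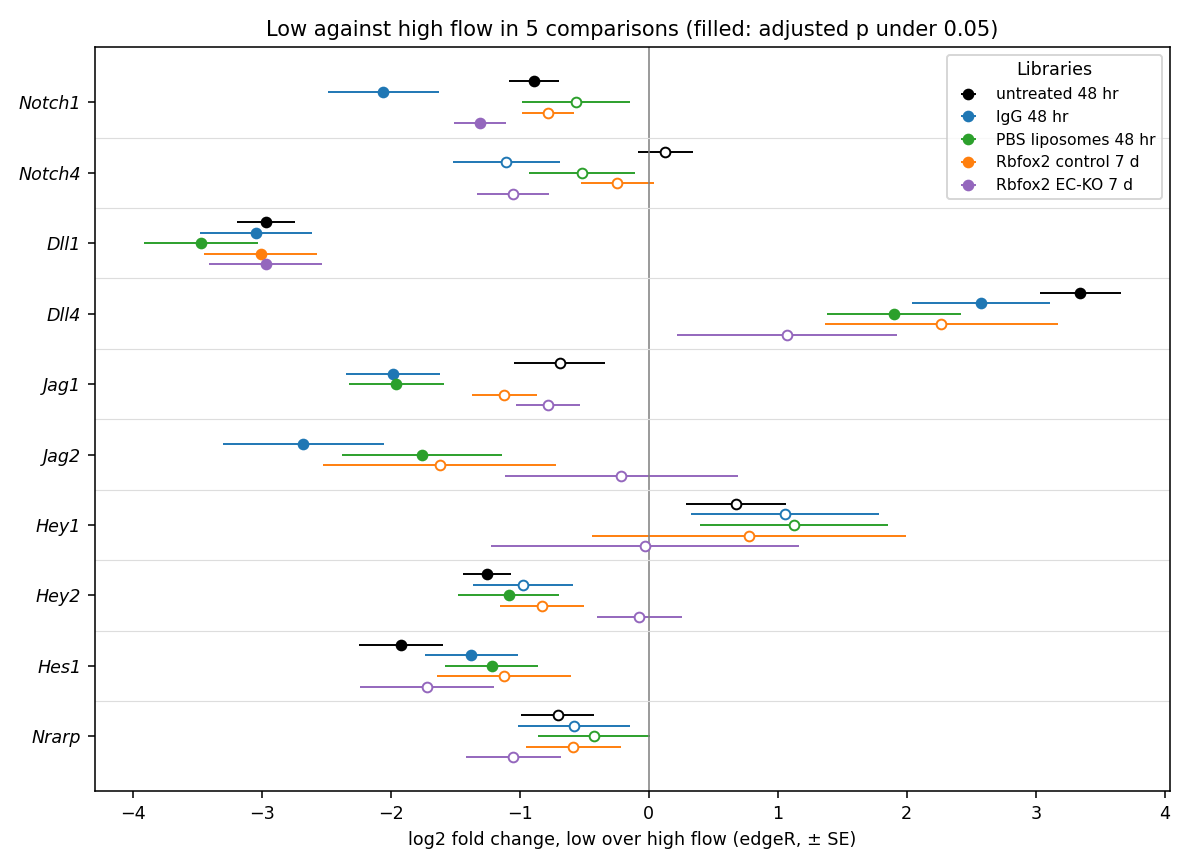
log2 fold change of low against high flow for each member in the 5 flow comparisons, with SE bars and 1 colour per comparison; filled points are called at an edgeR adjusted p under 0.05. Dll1 lies between -3.47 and -2.97 in all 5 comparisons and Dll4 between 1.07 and 3.35.

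The low-flow depletion groups ask which blood cells the low-flow response depends on. With anti-GPIba, which removes platelets, Hey2 was the 1 member called, 2.56-fold higher than with IgG, against a background of 16.5% of all genes called (6.05% higher). Hey2 stood at 94.2 and 96.7 FPKM with anti-GPIba and at 47.5 and 25.8 FPKM with IgG, and the groups did not overlap (log2 1.36 ± 0.39, SE; edgeR adjusted p = 0.0405). That call was lost without any 1 of the 4 libraries (edgeR adjusted p 0.0541 to 0.281) and with scaling to the endothelial markers (log2 1.03, edgeR adjusted p = 0.0665). Hes1 was at 10.5 and 14.5 FPKM with anti-GPIba and 17.0 and 28.9 FPKM with IgG (log2 -0.91 ± 0.36, SE; edgeR adjusted p = 0.0952), and passed the threshold with that scaling (log2 -1.28, edgeR adjusted p = 0.0369). Dll4 was at 25.4 and 15.1 FPKM against 29.9 and 46.2 FPKM, and Dll1 at 13.8 and 11.3 FPKM against 10.6 and 5.15 FPKM. Ranges did not overlap for 7 of the 10 members, as for 74.2% of all genes. Dll1, Hey2 and Notch1 (14.5 and 14.3 against 12.3 and 6.35 FPKM) had the higher levels with anti-GPIba. Dll4, Hes1, Notch4 (10.9 and 7.74 against 13.9 and 17.1 FPKM) and Nrarp (27.9 and 24.5 against 32.7 and 54.9 FPKM) had the lower levels. Of these 7 members edgeR called Hey2. The low-flow IgG libraries are those of the IgG flow comparison as well.

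Endothelial markers summed to 1.202% to 1.205% of counts with anti-GPIba and 0.533% to 0.680% with IgG, macrophage markers to 0.0223% to 0.0320% and 0.222% to 0.242%, and smooth muscle markers to 0.0749% to 0.105% and 0.439% to 0.475% (2 of 8 fell). Neutrophil markers were at 0.000278% to 0.000775% and 0.00886% to 0.0295% (5 of 6 tested fell). Of 8 platelet markers tested 1 rose, 1 fell and 6 were not called, with a list median of -1.68 (log2). Their part in the Hey2 difference was not tested beyond the scaling above. Of 34 further Notch genes 4 rose and 0 fell, beside 16.5% of all genes called (6.05% higher): Aph1b (log2 1.54; means of 96.5 and 32.5 FPKM), Aph1c (log2 1.33), the ubiquitin ligase Mib2 (log2 1.35), which acts on ligands, and Numb (log2 0.74). Of the 16 arterial genes 3 rose, namely Nrp1 (log2 1.35), a co-receptor of VEGF, Bmx (log2 1.67) and Foxc1 (log2 1.35), and 1 fell, beside the same 16.5%. Of the 5 venous genes Ephb4 rose (log2 0.96) and none fell. Aph1b, Bmx and Foxc1 had lower levels under low flow in the untreated pools.

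With anti-Gr1, edgeR called 0 of 13401 genes (0%; 2432 genes or 18.1% at an unadjusted p under 0.05, and 171 genes or 1.28% by DESeq2), and no member had an unadjusted p under 0.05. Dll4 was at 16.1 and 20.2 FPKM with anti-Gr1, Dll1 at 9.23 and 5.74, Hey2 at 77.0 and 43.1 and Hes1 at 12.01 and 15.4 FPKM. The Dll4 and Hes1 levels lay under both IgG libraries; ranges did not overlap for 3 of the 10 members, as for 51.1% of all genes. Neutrophil markers summed to 0.0016% to 0.0022% of counts with anti-Gr1 and 0.0089% to 0.0295% with IgG. Macrophage markers summed to 0.126% to 0.131% and 0.222% to 0.242% (1 of 12 at an unadjusted p under 0.05), endothelial markers to 0.933% to 1.04% and 0.533% to 0.680%, and fibroblast markers to 0.0695% to 0.0965% and 0.0276% to 0.0367% (5 of 7 at an unadjusted p under 0.05); their part in these values was not tested. Between anti-GPIba and anti-Gr1 edgeR also called 0 genes (0%; 1409 genes or 10.5% at an unadjusted p under 0.05, 355 genes or 2.65% by DESeq2).

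With clodronate liposomes 16 genes (0.119%) were called against PBS liposomes, all lower, and no member was among them by edgeR or DESeq2 (DESeq2 called 462 genes or 3.45%, and 2002 or 14.9% were at an unadjusted p under 0.05 by edgeR). Dll1 was at 15.2 and 8.43 FPKM with clodronate and 3.44 and 6.38 FPKM with PBS (log2 1.16 ± 0.41, SE; edgeR adjusted p = 0.267). Jag1 was at 11.7 and 10.9 FPKM against 3.86 and 6.42 FPKM (log2 1.03 ± 0.36, SE; edgeR adjusted p = 0.261). Hey2 was at 94.8 and 39.0 FPKM against 34.7 and 33.4 FPKM (log2 0.86 ± 0.39, SE; edgeR adjusted p = 0.333), and was called without clodronate library 2, which leaves 1 library in that group (adjusted p = 0.0457). For these 3 members and Notch1 (11.7 to 12.9 against 7.90 to 8.85 FPKM) both clodronate libraries lay above both PBS libraries. Ranges thus did not overlap for 4 of the 10 members, as for 51.5% of all genes. Dll4 was at 14.4 and 26.6 FPKM against 23.5 and 51.4 FPKM, with overlap. Macrophage markers summed to 0.0236% to 0.0242% of counts with clodronate and 0.133% to 0.221% with PBS liposomes, neutrophil markers to 0.00203% to 0.00296% and 0.00878% to 0.0270% (5 of 6 tested at an unadjusted p under 0.05), and endothelial markers to 0.696% to 1.10% and 0.497% to 0.502%; the part of these cells in these values was not tested.

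The low-flow liposome pools read at 100 bp, 1 per treatment, have no replicate check, and the intervals of their ratios are exact binomial limits at 95% on the split of counts between the libraries, which cover counting error only. Dll4 was at 11.1 FPKM (217 counts) with clodronate and 24.9 FPKM (430 counts) with PBS liposomes, a ratio of 0.45 (0.38 to 0.53). Dll1 was at 3.35 and 1.92 FPKM, a ratio of 1.74 (1.13 to 2.74), Hey2 at 33.5 and 23.6 FPKM, a ratio of 1.42 (1.23 to 1.65), and Jag1 at 39.0 and 28.7 FPKM, a ratio of 1.36 (1.24 to 1.49). Hey1, with 19 and 43 counts, had a ratio of 0.39 (0.22 to 0.69). Dll4 and Hey1 were the 2 members past 2-fold of the 9 with enough counts, beside 10.1% of all genes. Each of these ratios compares 2 libraries, not the treatments. Macrophage markers summed to 0.0221% of counts with clodronate and 0.155% with PBS liposomes, neutrophil markers to 0.00813% and 0.0346%, and endothelial markers to 0.734% and 0.554%. The part of these cells was not tested.

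**Figure D4:**
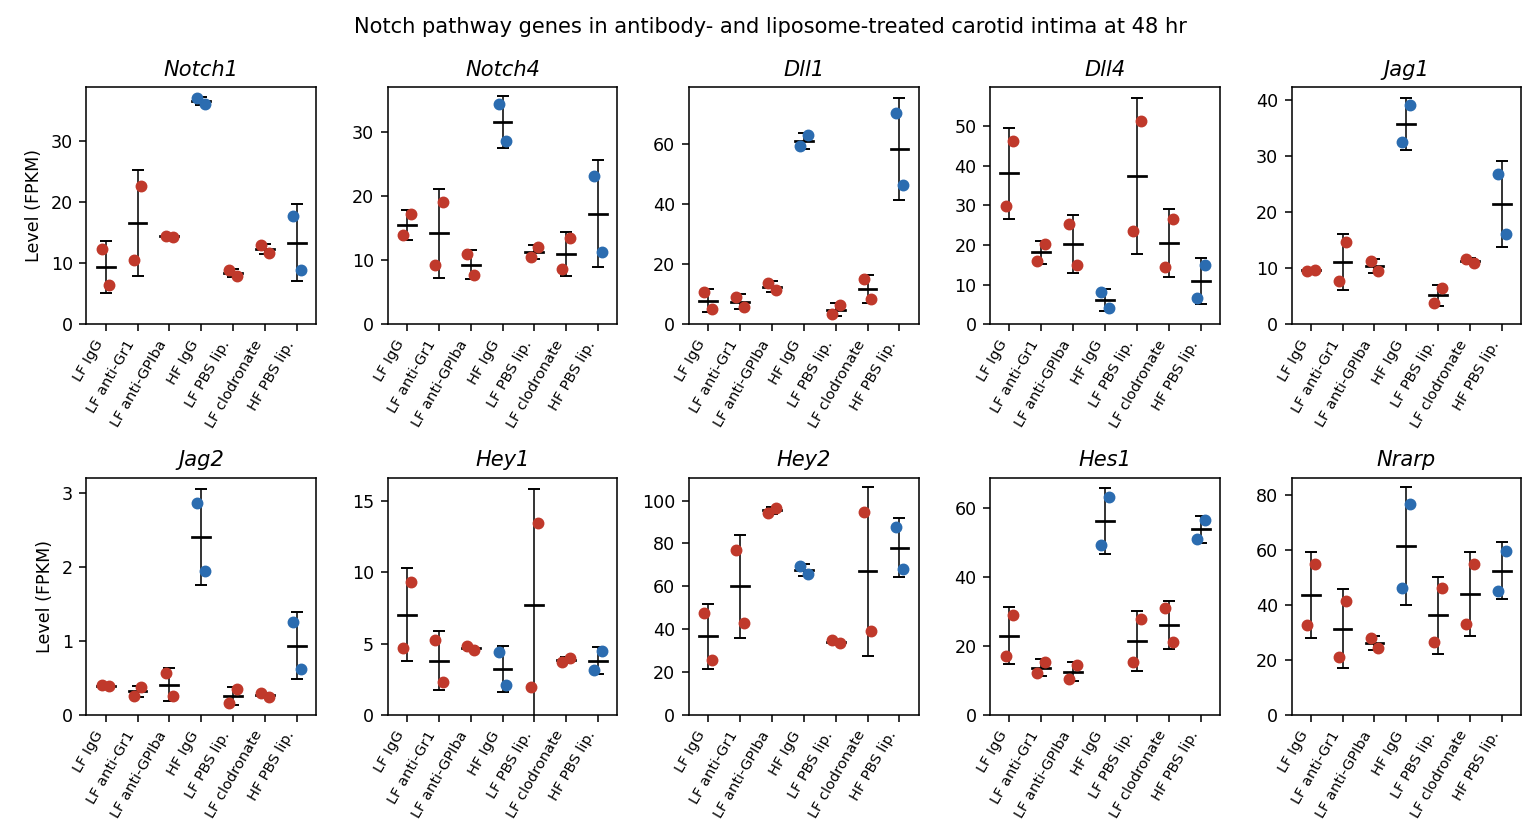
FPKM of each member (1 panel each, own linear axis from 0) in the treated 48 hr libraries (red low flow, LF; blue high flow, HF), 1 point per library with the mean and SD of the 2 libraries per group; whiskers that reach under 0 are not drawn below it. Dll4 has its highest group means in the low-flow IgG and PBS liposome groups (23.5 to 51.4 FPKM) and Dll1 in the high-flow groups (46.5 to 70.5 FPKM).

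The 7 d libraries add the loss of Rbfox2, an RNA-binding splicing factor, from endothelium. Rbfox2 itself was at 1.09, 0.169 and 0.622 FPKM in the low-flow Rbfox2 EC-KO libraries (numbers 1, 4 and 5, as the columns of the table are named) and at 3.27, 5.73 and 2.74 FPKM in the low-flow controls, without overlap, and 6.11-fold lower (log2 -2.61 ± 0.58, SE; unadjusted p = 0.00116, edgeR adjusted p = 0.692). Under high flow it was at 0.791 and 1.05 FPKM in EC-KO and 3.66 and 3.84 FPKM in controls. Its levels thus followed the labels in all 10 libraries.

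No member was called for the genotype. Under low flow edgeR called 0 of 13352 genes (0%), with 880 genes (6.59%) at an unadjusted p under 0.05 and 13 genes (0.0974%) called by DESeq2. The low-flow libraries came from 3 runs; a term for the run left the count at 0. Without low-flow control library 1, 1476 genes (11.1%) were called, and still no member. Notch4 had the lowest p of the members: it was at 16.4, 9.24 and 17.1 FPKM in EC-KO and 20.6, 29.0 and 19.7 FPKM in controls, without overlap, as in 7.91% of genes (log2 -0.67 ± 0.26, SE; unadjusted p = 0.0252, edgeR adjusted p = 0.692). Fibroblast markers summed to 0.104% to 0.349% of counts in low-flow EC-KO and 0.0449% to 0.108% in low-flow controls, macrophage markers to 0.0990% to 0.180% and 0.0325% to 0.168%, and neutrophil markers to 0.000403% to 0.00282% and 0.000754% to 0.0302%, each with overlap; their part was not tested. Dll4 was at 18.0, 58.2 and 22.7 FPKM in EC-KO and 14.97, 121 and 20.1 FPKM in controls. Number 4 was the highest in both genotypes. The control of that number was also the highest in Hey1 (13.2 FPKM beside 1.67 and 0.470), Hes1 (36.9 beside 7.89 and 12.5) and Nrarp (69.5 beside 26.9 and 41.3). Under high flow edgeR called 1 gene (0.00749%; 293 genes at an unadjusted p under 0.05, 26 by DESeq2), which was no member.

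**Figure D5:**
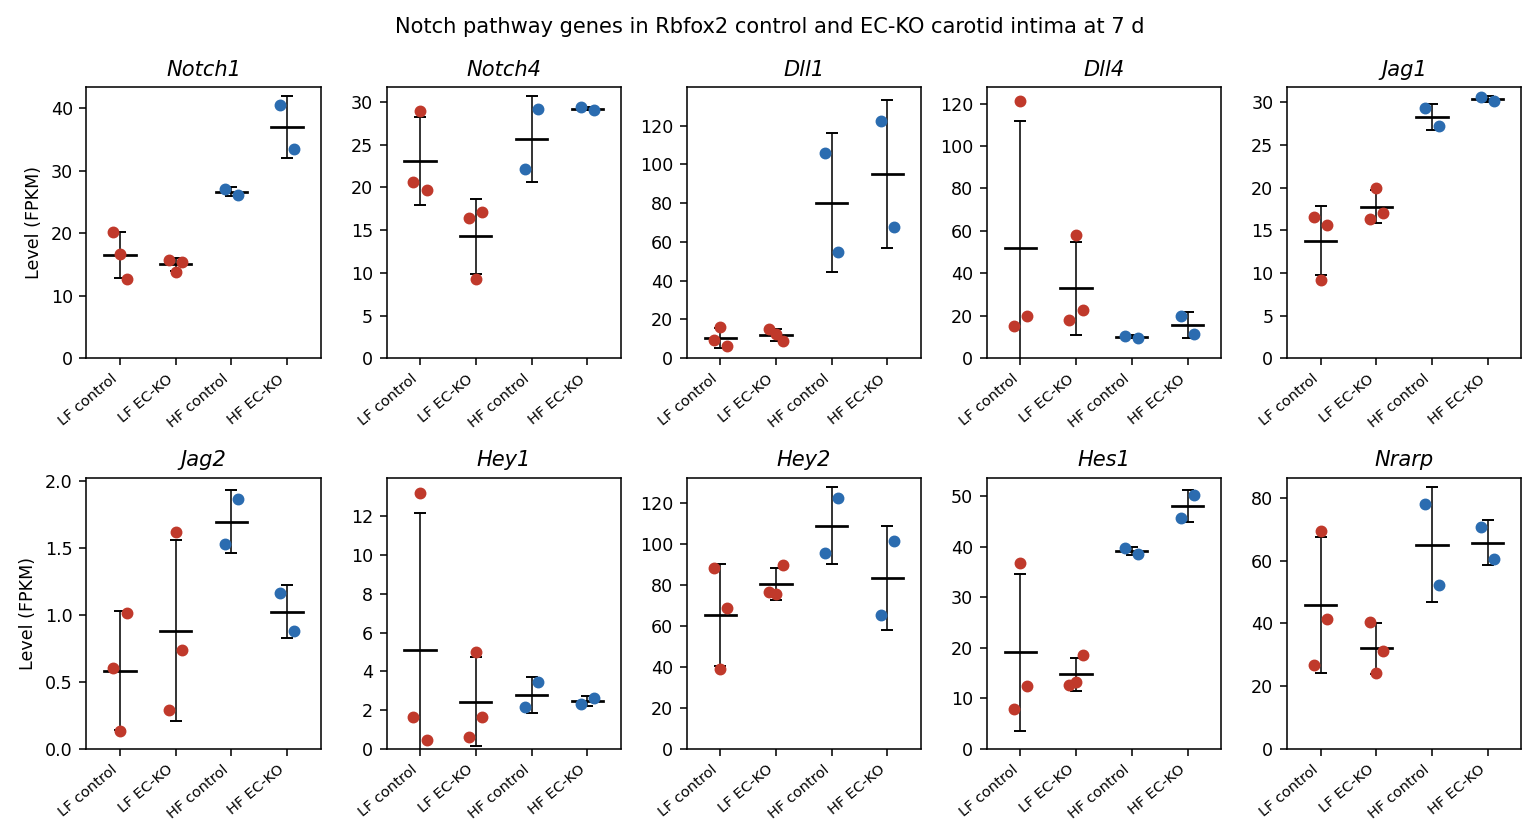
FPKM of each member (1 panel each, own linear axis from 0) in the 7 d libraries, 1 point per library with the mean and SD, for low (red, n = 3) and high flow (blue, n = 2) in Rbfox2 control and EC-KO; whiskers that reach under 0 are not drawn below it. Dll1 lies at 6.26 to 16.1 FPKM in the 6 low-flow libraries and 54.8 to 122 FPKM in the 4 high-flow libraries.

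The flow difference in Dll1 was present at 7 d in both genotypes. In controls Dll1 was at 9.26, 16.1 and 6.26 FPKM under low flow and 106 and 54.8 FPKM under high flow, 8.04-fold lower (log2 -3.01 ± 0.44, SE; edgeR adjusted p = 0.0171; log2 -2.28 with scaling to the endothelial markers, which moved the median gene to 0.80), and it was the 1 member called beside 2.4% of all genes. In EC-KO Dll1 was at 14.98, 12.7 and 8.65 FPKM against 122 and 67.9 FPKM, 7.83-fold lower (log2 -2.97 ± 0.44, SE; edgeR adjusted p = 0.0192), and Notch1 was called as well, at 15.8, 13.8 and 15.5 FPKM against 40.5 and 33.5 FPKM (log2 -1.31 ± 0.20, SE; edgeR adjusted p = 0.0201). These 2 calls stand beside 1.09% of all genes, and no low-flow library reached the high-flow range, as ranges did not overlap for 39.7% of all genes in controls and 43.6% in EC-KO. Dll4 in controls had a log2 fold change of 2.27 ± 0.90 (SE; edgeR adjusted p = 0.154), from 10.7 and 9.67 FPKM under high flow; without low-flow library 4 (121 FPKM) it was 0.71 (edgeR adjusted p = 0.515). Jag1 in controls had one of -1.12 (edgeR adjusted p = 0.0512), from 16.6, 9.16 and 15.6 FPKM under low flow and 29.3 and 27.2 FPKM under high flow. Hes1 in EC-KO was at 12.6, 13.2 and 18.5 FPKM against 45.8 and 50.3 FPKM and was not called by edgeR.

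These counts depended on single libraries. In controls 5 members were called without low-flow library 1 (Notch1, Dll1, Dll4, Jag1 and Hey2; 29.4% of all genes), 4 with a term for the run (Notch1, Dll1, Dll4 and Jag1; 16.7%) and 4 by DESeq2 (16.4%). The Dll1 call was lost without high-flow library 4 or 5 or low-flow library 5 (edgeR adjusted p 0.0514 to 0.132), with its log2 fold change between -3.39 and -2.49. In EC-KO both calls were lost without any 1 of the 5 libraries (edgeR adjusted p 0.0653 to 0.213). Endothelial markers summed to 0.582% to 1.21% of counts in the low-flow and 1.70% to 1.87% in the high-flow libraries at 7 d, macrophage markers to 0.0325% to 0.180% and 0.0049% to 0.0135%, and smooth muscle markers to 0.112% to 0.179% and 0.0292% to 0.0412%. Fibroblast markers summed to 0.104% to 0.349% under low and 0.0546% to 0.0664% under high flow in EC-KO (1 of 7 rose), and to 0.0449% to 0.108% and 0.0654% to 0.0795% in controls. The part of these cells was not tested. The flow by genotype interaction, the test of whether the flow difference itself depended on Rbfox2, called 0 of 13352 genes by edgeR (0%; 538 genes or 4.03% at an unadjusted p under 0.05, 11 genes or 0.0824% by DESeq2), and no member by either tool. Of the 37 further Notch genes tested at 7 d none was called for flow in controls, where 3 of 16 arterial genes fell, beside 2.4% of all genes called (Epas1 log2 -2.60, Acvrl1, an endothelial receptor of the BMP family, -1.19, and Efnb2 -1.19). Of the 5 venous genes Ephb4 fell in controls (log2 -1.17).

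Over the 5 flow comparisons, Dll1 was lower under low flow in all 5 and called in all 5. Dll4 was higher in all 5 and called in 3. Notch1 was lower in all 5 and called in 3, though with scaling to the endothelial markers its value was 0.01 in PBS liposome-treated arteries and -0.04 in 7 d controls. Jag1 (called in 2), Hes1 (called in 3) and Hey2 (called in 2) were lower in all 5, and with that scaling Hey2 was at -0.06 in 7 d controls and turned to 0.47 in EC-KO. Nrarp was lower in all 5 and called in none, and turned to 0.22, 0.09 and 0.18 with that scaling in the IgG, PBS and 7 d control comparisons. Jag2 was lower in the 4 comparisons that tested it and called in 2, and turned to 0.25 in EC-KO with that scaling. Notch4 (4 lower, 1 higher) and Hey1 (4 higher, 1 lower) were called in none. The 5 comparisons use separate libraries.

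In the aortic endothelial line, with 1 library per condition and exact binomial limits that cover counting error only, plasma went with higher Dll1 and lower Jag1, Hey2 and Hes1. Dll1 was at 1.47 FPKM in untreated cells, 4.99 with plasma, 1.65 with the added cells (platelets and macrophages) and 7.56 with all of them. The ratio to untreated was 3.38 (2.58 to 4.48) with plasma and 5.13 (3.98 to 6.69) with all, so the plasma libraries were the high ones. Jag1 was at 13.8, 5.62, 10.9 and 2.07 FPKM in the same order, 6.66-fold lower with all (ratio 0.15, 0.13 to 0.18). Hey2 was at 14.6, 6.32, 9.69 and 2.12 FPKM, 6.88-fold lower with all (ratio 0.15, 0.11 to 0.18), and Hes1 at 54.8, 32.4, 50.9 and 17.8 FPKM, 3.07-fold lower with all (ratio 0.33, 0.29 to 0.37). For Jag1, Hey2 and Hes1 the plasma libraries were lower than those without plasma. Notch4 was at 0.591, 0.864, 1.58 and 4.52 FPKM, 7.65-fold higher with all (5.79 to 10.3), and Notch1 stayed at 4.25, 4.45, 4.57 and 5.36 FPKM.

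Dll4 was near the limit of detection in the line, with 16, 7, 0 and 12 counts; the ratio of the library with platelets and macrophages to untreated cells was 0 (0 to 0.27). Hey1 had 7, 11, 2 and 3 counts. Of the members with at least 20 counts in the 2 libraries, 4 of 9 passed 2-fold with plasma (12.3% of all genes). These were Dll1, which was higher, and Jag1, Hey2 and Dll4, which were lower. The Dll4 ratio with plasma was 0.46 (0.16 to 1.18), with limits on both sides of 1, and Hes1, at 0.59 (0.53 to 0.65), did not pass. With platelets and macrophages 3 of 8 passed (Notch4, Jag2 and Nrarp, all higher, beside 11.3%), and 5 of 9 with all (21.3%). The 13 endothelial markers summed to 0.0382% to 0.0433% of counts in the line, under those of primary cells (0.388% to 0.639%), though none was at 0. Macrophage markers summed to 0.00206% of counts in untreated cells, 0.00572% with plasma, 0.0386% with the added cells and 0.0301% with all; what added cells gave to the members' counts was not tested. Fibroblast markers summed to 0.0606%, 0.0345%, 0.0641% and 0.0301% in the same order, so they too were lower in the plasma libraries. Their part was not tested.

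In primary aortic endothelial cells at 7 days, Rbfox2 was at 0.675 FPKM in EC-KO and 9.33 FPKM in control, 13.8-fold lower. Dll4 was at 24.2 and 11.4 FPKM, a ratio of 2.12 (1.90 to 2.37), Dll1 at 1.81 and 0.586 FPKM, a ratio of 3.09 (1.94 to 5.03), and Jag2 at 1.80 and 0.387 FPKM, a ratio of 4.66 (2.85 to 7.91). These 3 were the members past 2-fold of 10, beside 10% of all genes. Jag1 had a ratio of 0.73 (0.69 to 0.77) and Nrarp, at 277 and 174 FPKM, one of 1.59 (1.54 to 1.65). Notch4 was at 18.5 and 18.9 FPKM, Hes1 at 111 and 107 FPKM, Hey1 at 6.30 and 9.40 FPKM and Hey2 at 27.3 and 22.4 FPKM. The intervals are exact binomial limits as above, and the ratios compare 2 libraries and not the genotypes. Macrophage markers summed to 0.0325% of counts in the control (11 of 12 detected) and 0.0002% in EC-KO (4 of 12 detected), although the cells were sorted for CD31 and Icam2 before RNA isolation; their part was not tested. The library of eGFP-positive cells at 5 days, read at 100 bp, had Jag1 highest among the members at 51.1 FPKM, then Hey2 (12.1), Dll4 (11.8), Hes1 (10.9), Notch1 (9.33) and Nrarp (8.57), then Hey1 (5.44), Notch4 (2.57), Dll1 (2.56) and Jag2 (0.308).

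As a description, the genes with the pattern most like each member were taken over the 23 untreated and treated 48 hr carotid libraries of the main sets, among 10751 genes, by Pearson's r of log2(FPKM + 0.1); the 9 untreated and 14 treated libraries differ in run and read length, and r was taken over both sets together. For Dll1 they were Rhpn2, Emp2 and Slc9a3r2 (r = 0.97 for the first), for Dll4 Mpzl1, Marcksl1 and Prmt7 (0.95), and for Jag1 Trim32, Reep5 and Anpep (0.95). For Notch1 they were Smad7, Med12 and Ttc28 (0.97), and for Notch4 Mllt1, Ctbp1 and Nploc4 (0.99). For Hey1 they were Mtmr11, Cdc42se1 and Cnp (0.90), for Hey2 Zfp704, Akap8l and Adck2 (0.98), for Hes1 Dhh and Sdc1 (0.96), and for Nrarp Slain2, Dnajc3 and Orai1 (0.98). No other member was among any member's 3 nearest genes. Centred within the untreated and the treated sets, a step chosen after seeing the data, 8 of the 27 names stayed, and the nearest to Dll1 were Rhpn2, Emp2 and the endothelial nitric oxide synthase Nos3 (0.98 for the first).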

How the data were processed

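RNA from carotid intima, an aortic endothelial line and primary aortic endothelial cells was sequenced from SMARTer libraries. The authors deposited 1 table of expected counts from RSEM 1.2.15 (STAR 2.5.1b alignments, mm9 annotation, per the labels), in which 5.20% to 19.3% of values in a library are not whole, and RPKM values by the authors for 25 of the libraries. Of 204 value columns, 67 were matched by name and 137 were not used. The names of 17 count columns (9 untreated pools and 8 of the 7 d libraries) give the group but not which labelled replicate, so their pool letters and numbers are only names. 1 entry with no gene name (0% to 0.117% of counts) was left out. The study's methods name another aligner for the trimmed reads of the untreated pools, while its legend to the test of low against high flow names STAR. Some doubt about the aligner is left for these pools.

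Expected counts were rounded and tested with edgeR 4.0.16 (quasi-likelihood, TMM scaling, filterByExpr, Benjamini-Hochberg adjustment over all genes tested, threshold 0.05; R 4.3.3), in 2-group fits for untreated pools, 1 fit of 7 groups for treated pools and 1 fit of 4 groups at 7 d. FPKM was computed from counts, effective lengths and library totals; deposited RPKM (0.938 to 2.04 times these FPKM, median 1.05) served as an alternative. DESeq2 1.42.0, other scalings and filters, and leaving out each library were alternatives. The fits were also run on simulated counts with known changes and the same spread for all genes. The simulation held no pairing, run effect or deviant library, so it does not show how the fits behave with these. With 1 library per condition, ratios were given with exact 95% binomial limits of the split of counts, which cover counting error only.

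All 10 members were named. Of the other Notch, arterial and venous lists at most 4 called genes per direction were named, by smallest p. The 3 genes most like each member with a median of at least 1 FPKM were named, which left out Jag2; 1 of these genes is not reported here. The members and lists were chosen with earlier results of these data known.

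The 7 d numbers 1, 4 and 5 come from column names, not from the labels. Between low-flow EC-KO and control, deviations from the group means correlated at 0.56, 0.21 and 0.41 for these numbers over 10858 genes, a hint from the data and not from the design. No replicate pair differed by as little as sampling noise (lowest mean chi-square per gene 11.2).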

Additional observations from a re-analysis of the deposited data

How the results depend on the processing

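The alternatives were followed for the 46 differences of members with an unadjusted p under 0.05 or a DESeq2 call, and none of these reversed. Outside them signs turned with scaling to the endothelial markers: Nrarp in the IgG, PBS liposome and 7 d control flow comparisons, Notch1 with PBS liposomes, Notch4 with PBS liposomes (0.05) and in 7 d controls (0.52), and Jag2 and Hey2 in EC-KO. Hey1 in EC-KO was between -0.04 and 0.41 over the scalings. Leaving out 1 library left the call as it was in 177 of 227 values, ended it in 42 and added it in 8. Other alternatives left it in 329 of 377, ended it in 13 and added it in 35. Where leaving out a library leaves 1 in its group, the spread comes from the other groups of the fit. Over leaving out 1 library, the number of members called ran from 5 to 6 in untreated low against high flow (5 with all pools), from 3 to 5 against sham (5), from 0 to 1 in high flow against sham (0), was 0 for anti-GPIba (1), from 0 to 1 for clodronate (0), from 4 to 6 for IgG flow (6), from 2 to 4 for PBS liposome flow (6), from 0 to 5 for flow in 7 d controls (1) and 0 for flow in 7 d EC-KO (2). Scaling to the endothelial markers gave 2 members for anti-GPIba, 3 for PBS liposome flow, 2 for flow in 7 d controls and 1 in EC-KO. For this scaling and several other alternatives the share of all genes called is not reported here, so those counts have no background. For flow in 7 d controls DESeq2 called 4, no filter on low counts 2, the 2 groups alone 0, a run term 4, and leaving out the low-flow libraries of number 1 together 5; in EC-KO DESeq2 called 4 and the 2 groups alone 5. Over all genes DESeq2 called 3690 for anti-GPIba against 2216 by edgeR, 2185 against 320 for flow in 7 d controls and 939 against 146 in EC-KO; with a run term edgeR called 2235 and 532. The cause of these shifts was not tested.

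With a replicate block 5 members were called for flow in 7 d controls (2940 of all genes) and 2 in EC-KO (1317). With this block 7 and 5 members were called for IgG and PBS liposome flow, 1 for anti-GPIba, and 0 for anti-Gr1, clodronate and genotype. For the antibody and liposome comparisons the share of all genes called with the block is not reported here, so their counts have no background. The block at 7 d used the numbers of the column names. Low-flow genotype pairs (correlations over 0.1 for all 3 numbers) had no gene called with or without the block. The other comparisons had correlations of -0.06 to 0.53. Those over 0.1 for every number were clodronate (0.51), PBS liposome flow (0.53), high-flow genotype (0.26) and anti-Gr1 (0.11). Low-flow and high-flow pools of the same number may hold arteries of the same animals, but the labels do not say so. For the untreated pools no paired analysis was possible, because their letters tie no animals. A further sequencing run of the untreated pools, and the sum of runs, were not analysed here. For the 25 libraries with deposited RPKM the median level over members was 13.3 in RPKM; single values ran from 0.938 to 2.04 times the FPKM. Of the 27 names by likeness, 20 were kept with a pseudocount of 1 and 8 with centring within sets. At 4064477 to 6794904 counts Jag2 had too few counts to test in untreated pools, and Dll4 and Hey1 had 16 counts or fewer in the cell line.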

Other observations

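Levels of some members differed between library sets read at different lengths. Nrarp stood at 1.30 to 3.54 FPKM in the untreated low-flow pools and at 6.54 FPKM in the PBS liposome pool read at 100 bp, but at 21.3 to 54.9 FPKM in the 10 treated low-flow libraries read at 150 bp. Notch4 was at 1.08 to 2.04 FPKM in the untreated low-flow pools and 7.74 to 19.1 FPKM in the treated low-flow libraries. Jag1 went the other way, at 12.1 to 27.1 FPKM and 3.86 to 14.7 FPKM. With the treatment held fixed the gap remained: under low flow with PBS liposomes Nrarp was at 6.54 FPKM at 100 bp and at 26.4 and 46.3 FPKM at 150 bp, Notch4 at 4.98 against 10.4 and 12.01 FPKM, and Jag1 at 28.7 against 3.86 and 6.42 FPKM. With clodronate Nrarp was at 6.48 FPKM against 33.3 and 54.9 FPKM. Read length and sequencing run differ together there and cannot be told apart.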
